A study of Mus musculus with 24 samples.

Results

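The loci of the epidermal growth factor (EGF) receptor family and its ligands were followed through chromatin accessibility data from mouse skin epithelium and cultured keratinocytes in which the transcription factor SOX9 had been induced. Members were the accessible regions, merged over all 12 peak lists, that overlapped the gene body or 50 kb on either side of 10 genes, namely the receptors Egfr, Erbb2, Erbb3 and Erbb4 and the ligands Areg, Ereg, Hbegf, Tgfa, Btc and Nrg1. The rule used gene positions only and took 242 of 134312 regions, of which 111212 lay in the window of some protein-coding gene. The question put to these regions was whether chromatin at the receptor and ligand genes opened or closed as SOX9 was expressed in skin, and which parts of SOX9 and which partners had to be present in culture.

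The assay was ATAC-seq, in which a transposase inserts adapters into open DNA, so that a peak marks accessible chromatin. All 24 samples fell into 12 groups of 2 replicates, and the reads of both replicates had been merged before peaks were called, so each group was 1 list and no difference between lists could be tested. The in vivo groups were K14rtTA; TRE-myc-Sox9 male mice on a CD1 background, in which doxycycline (DOX) switches on a myc-tagged Sox9 transgene in cells with an active Krt14 promoter, which drives the rtTA activator in basal epidermis. The skin lists were D0 (postnatal day 21, before DOX), W1 (day 28), W2 (day 35), W6 (day 63) and W12. The W12 skin had been grafted from newborn pups onto female Nude hosts, so 12 weeks of DOX and grafting cannot be told apart, and age rose with time on DOX at the earlier points. Cells were sorted for high CD49f and Ly6A, without CD34, CD31, CD45, CD117 or CD140a, which enriches for interfollicular epidermal stem cells. The culture groups were keratinocytes from newborn male pups, either without DOX (noDOX, K14rtTA; TRE-myc-Sox9) or with DOX at 1 µg/ml and full-length SOX9 (WT-SOX9), a SOX9 that lacks the HMG domain through which it contacts DNA (noHMG-SOX9), one that lacks the transactivation domain (noTA-SOX9), a dominant-negative FOS (AFOS, from TRE-FLAG-AFOS), SOX9 with AFOS (SOX9+AFOS), or SOX9 with DOX-induced ARID1a, a subunit of the SWI/SNF remodelling complex (SOX9+ARID1a, from TRE-ARID1a). The SOX9 variants, AFOS and ARID1a were delivered by lentivirus. The labels give day 3 of DOX for 1 replicate each of WT-SOX9, noHMG-SOX9 and noTA-SOX9 and no day for the other DOX samples.

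EGF receptor family proteins are tyrosine kinases at the cell surface that pair up when a ligand binds, and they drive growth, migration and survival through RAS-MAPK, PI3K and STAT signalling. In skin the pathway keeps basal keratinocytes dividing and is often overactive in squamous tumours. The ligands are made as membrane-bound precursors that proteases release, and ERBB2 has no known ligand while ERBB3 has little kinase activity, so both act as partners of the other receptors.

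Each value below is a normalised peak score, which the authors had scaled so that the scores of a list summed to between 925672 and 996710, and which had a minimum of 3 in every list. A region took the highest score of its peaks, and "none" means that no peak of that list passed the minimum. A region was called higher or lower when its score changed at least 2-fold, with a score of 3 standing in for an absent peak, so a fold against an absent peak is a lower bound. The lists held between 49458 and 75956 peaks. The highest score was 448 in AFOS, 236 in SOX9+AFOS and 375 in SOX9+ARID1a against 1187 to 2310 in the other culture lists, and the widest peak was 3560, 3583 and 2227 bp against 9245 to 10772 bp. The peak names of those 3 lists also follow another pattern, so comparisons of them with noDOX may hold a difference in peak calling, whose part was not tested. In the skin lists the widest peak was 3483 to 3592 bp. Comparisons of skin with culture may hold such a difference too, and its part was not tested either.

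Promoters of all 5 keratinocyte markers carried a peak in every list, with summed scores of 81.3 to 117 in skin and 121 to 243 in culture, and none of 4 immune markers did in any list. The melanocyte marker Dct had a promoter peak in all 5 skin lists (20.1 to 38.02), Dct (17.7) and Mlana (4.49) had one in SOX9+AFOS and in no other culture list, and Tyr and Sox10 had none anywhere. The part of this in the SOX9+AFOS gains described below was not tested. Fibroblast promoters (Pdgfra and Col1a1, with Col3a1 and Lum at none) summed to 13.8 to 23.4 in skin and 5.66 to 26.9 in culture, and between 2 and 4 of 4 hair follicle promoters were open. Endothelial promoters summed to 9.21 at D0, none at W1 and 41.4 to 48.5 from W2 on, and to 23.7 to 77.0 in culture. In skin the later sums came from Pecam1 (38.3, 42.2 and 41.4 at W2, W6 and W12) and from Kdr (5.85 and 6.28 at W2 and W6). Pecam1 also scored 39.4 in noDOX. Tie1 had no peak in any list, and Cdh5 had none in skin, with 3.23 in noHMG-SOX9 and 9.21 in noTA-SOX9. The endothelial skin sums moved in step with the skin gains described below, where their part was not tested. A peak over exon 3 of Sox9, which a spliced transgene can also feed, scored 13.5 at D0, 15.1 at W2, 9.22 at W6 and 8.84 at W12 but was absent at W1. It did not follow time on DOX and does not check which skin lists were induced. D0 and W1 are therefore called by their labels, both are printed for the regions described one by one, and counts are given against both. In culture the exon 3 peak scored 3.71 in noDOX, 21.2 in WT-SOX9, 71.9 in noHMG-SOX9, 5.11 in SOX9+AFOS and 3.71 in SOX9+ARID1a, and it was absent in noTA-SOX9 and AFOS, so it does not check SOX9 expression in the SOX9+AFOS, SOX9+ARID1a or noTA-SOX9 lists, and "with full-length SOX9" below means so labelled. The highest Sox9 promoter score was 101 in noTA-SOX9 and 71.9 in noHMG-SOX9, against 21.8 in noDOX and 21.2 in WT-SOX9. It was 22.8 in AFOS, 13.3 in SOX9+AFOS and 6.49 in SOX9+ARID1a.

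The regions that the results below turn on are shown as the central 200 bases, read from the C57BL/6J reference GRCm38, which can differ from the CD1 mice studied. Capitals mark matches to short binding-site letters, namely ACAATAG or ACAATGG for SOX factors, TGACTCA or TGAGTCA for AP1, AGATAA for GATA factors and TGTGGT for RUNX factors, each searched on both strands. The first 3 were present in every culture list with full-length SOX9 and in no other culture list, the first in an intron of Egfr, the second between Areg and Ereg and the third downstream of Tgfa.
Egfr, chr11:16857293-16857492, + strand: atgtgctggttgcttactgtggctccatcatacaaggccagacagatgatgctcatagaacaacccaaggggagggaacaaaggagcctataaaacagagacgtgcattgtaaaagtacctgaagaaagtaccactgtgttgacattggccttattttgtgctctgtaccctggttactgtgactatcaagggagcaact
Areg/Ereg, chr5:91114708-91114907, + strand: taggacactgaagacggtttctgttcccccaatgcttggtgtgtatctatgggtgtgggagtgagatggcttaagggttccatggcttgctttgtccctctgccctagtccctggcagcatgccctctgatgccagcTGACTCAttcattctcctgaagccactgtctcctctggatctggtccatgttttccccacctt
Tgfa, chr6:86293624-86293823, + strand: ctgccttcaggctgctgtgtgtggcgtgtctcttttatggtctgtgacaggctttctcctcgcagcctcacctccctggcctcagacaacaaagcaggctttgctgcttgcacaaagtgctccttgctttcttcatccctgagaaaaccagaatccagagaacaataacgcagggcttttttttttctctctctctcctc
The next 3 are the Tgfa intron region with the highest score among those lower in WT-SOX9, the Erbb4 intron region gained in skin that holds SOX and GATA letters, and the Nrg1 region lost in skin.
Tgfa, chr6:86219333-86219532, + strand: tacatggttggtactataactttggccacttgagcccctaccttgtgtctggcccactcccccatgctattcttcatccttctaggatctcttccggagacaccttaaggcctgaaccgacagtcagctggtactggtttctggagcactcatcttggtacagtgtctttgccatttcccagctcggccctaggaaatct
Erbb4, chr1:68049837-68050036, + strand: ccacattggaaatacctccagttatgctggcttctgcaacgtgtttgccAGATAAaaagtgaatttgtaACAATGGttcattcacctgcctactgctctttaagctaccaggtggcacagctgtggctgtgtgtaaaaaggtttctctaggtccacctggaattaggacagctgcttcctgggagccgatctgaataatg
Nrg1, chr8:32281955-32282154, + strand: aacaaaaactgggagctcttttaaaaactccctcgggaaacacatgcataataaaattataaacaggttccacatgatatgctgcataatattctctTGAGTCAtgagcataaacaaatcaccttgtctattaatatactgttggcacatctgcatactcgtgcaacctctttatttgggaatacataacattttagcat

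The members differed widely in how much open chromatin surrounded them. Egfr held 42 regions, Erbb2 15, Erbb3 16 and Erbb4 9, while among the ligands Areg held 24, Ereg 25, Hbegf 19, Tgfa 31, Btc 10 and Nrg1 65. Areg and Ereg are neighbours on chromosome 5 and shared 14 regions, which are counted once in all totals. Per 100 kb of window, Areg (22.1), Ereg (21.004), Tgfa (17.2), Hbegf (17.1) and Egfr (15.8) were the densest, Erbb3 (13.1) and Erbb2 (11.98) followed, and Btc (6.86), Nrg1 (5.56) and Erbb4 (0.765) fell below the median of 8.27 over all protein-coding genes. Nrg1 and Erbb4 are genes of over a megabase (chr8:31814551-32884029 and chr1:68032186-69108059, both on the - strand), so their many or few regions lay far apart. The windows of Erbb2 and Erbb3 were crowded, with 7 and 6 other protein-coding genes, and only 4 of 15 and 3 of 16 of their regions lay nearest to the member's own start. Of all 242 regions, 190 lay nearest to a start of a member, 137 were intronic, 73 intergenic, 29 at a promoter of some gene and 3 exonic.

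A core of 56 regions, 23.1%, was open in all 12 lists, beside 15.9% over all gene windows, and 45 (18.6%) appeared in 1 list only, beside 22.3%. Skin alone held 63 of the 242 regions, culture alone 56, and 123 were shared. A skin peak was thus found in 186 of the 242 and a culture peak in 179. Over all gene windows these were found in 80014 and 81631 of 111212 regions. In the skin lists the members had peaks in 109 regions at D0 and 108 at W1, then in 126 at W2, 147 at W6 and 134 at W12, and in culture in between 98 (WT-SOX9) and 128 (SOX9+ARID1a). Over the whole series the skin lists held 54374, 55832, 59277, 71467 and 67801 regions in the same order, WT-SOX9 51741 and SOX9+ARID1a 54462. In skin both sets of counts rose from W1 to W6 and fell at W12. The W6 list was also the longest of all, so the members' counts are not free of list length.

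**Figure D1:**
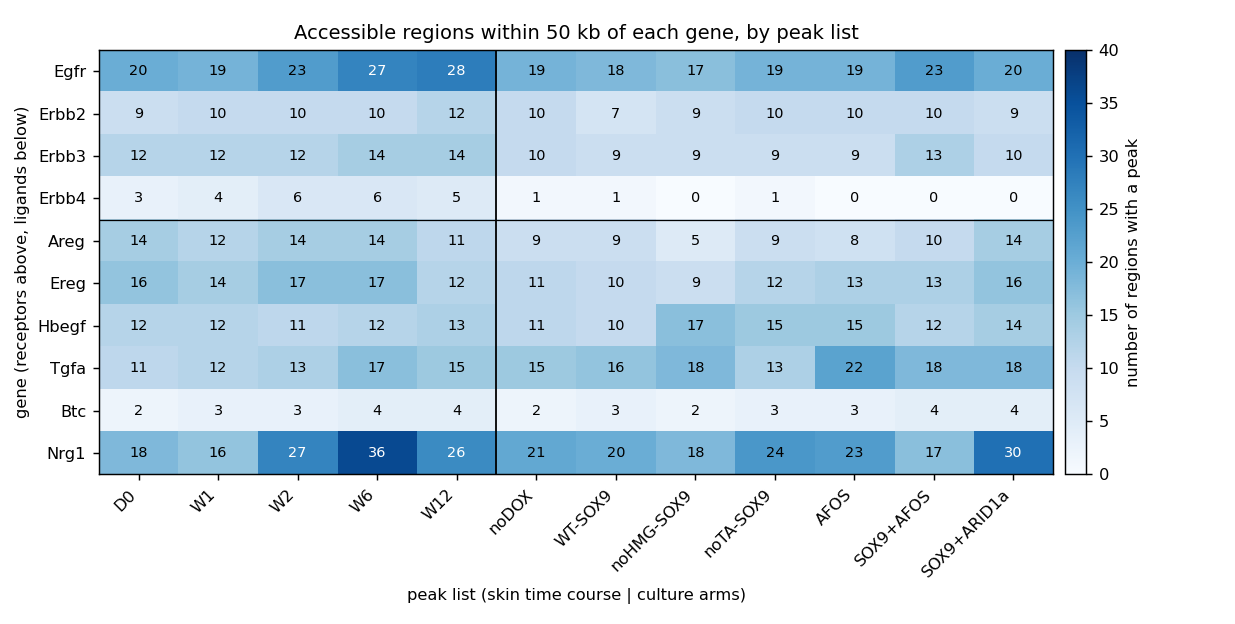
Number of regions with a peak in the window of each gene (rows) in each of the 12 lists (columns, skin lists first), with the number printed in the cell. Nrg1 rose from 18 regions at D0 to 36 at W6, while the whole series rose from 54374 to 71467. Erbb4 had between 0 and 1 region in every culture list.

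Egfr, the founding receptor of the family (chr11:16752203-16918158, + strand), had an open promoter in all 12 lists. The promoter region chr11:16751914-16754061 scored 41.6 at D0 and 26.9 at W1, then 33.5 at W2, 32.7 at W6 and 37.7 at W12, and in culture 35.2 in noDOX, 29.8 in WT-SOX9, 28.3 in noHMG-SOX9, 24.3 in noTA-SOX9, 31.8 in AFOS, 42.1 in SOX9+AFOS and 19.9 in SOX9+ARID1a. Its highest value was 2.12 times its lowest, and no list was 2-fold away from its own reference. The most open region outside promoters lay in an intron 48.5 kb from the gene's 5′ end (chr11:16800200-16801268). It scored 92.7 at D0 and 78.2 at W1, then 77.7 at W2, 49.0 at W6 and 61.7 at W12, and in culture 81.7 in noDOX, 38.5 in WT-SOX9, 60.1 in noHMG-SOX9, 38.005 in noTA-SOX9, 35.2 in AFOS, 37.97 in SOX9+AFOS and 85.2 in SOX9+ARID1a. The WT-SOX9 score was 0.471 of noDOX, and 0.548 once scores were scaled on regions shared by all lists, which takes it back under a 2-fold change.

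A second Egfr intron region 105.2 kb from the 5′ end (chr11:16857035-16857750, the first sequence above) was absent at D0 and W1 and scored 32.4 at W2, 26.0 at W6 and 23.9 at W12, at least 10.8-fold higher at W2 than at D0. The caller's own fold enrichment there was 15.6, 13.3 and 12.6. In culture it was absent from noDOX, noHMG-SOX9, noTA-SOX9 and AFOS and scored 7.75 in WT-SOX9, 27.5 in SOX9+AFOS and 7.04 in SOX9+ARID1a. The later skin lists and the 3 culture lists with full-length SOX9 held this region, and the other lists did not. Egfr also lost a region, chr11:16766388-16766868, which scored 9.93 at D0 and 11.01 at W1 and had no peak in any later skin list. Another Egfr region, 17.6 kb into the gene (chr11:16769055-16770457), was open in all 12 lists and ran from 25.4 at D0 and 26.3 at W1 to 7.46 at W6, while in culture it scored 6.24 in noDOX, 3.91 in WT-SOX9 and 69.8 in SOX9+AFOS, an 11.2-fold difference between SOX9+AFOS and noDOX.

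Erbb2 encodes the receptor without a ligand of its own (chr11:98412470-98437716, + strand). Its promoter region chr11:98412103-98413133 scored 17.4 at D0 and 34.1 at W1, then 20.5 at W2, 15.5 at W6 and 17.97 at W12, and between 18.9 (noTA-SOX9) and 51.0 (SOX9+AFOS) in culture, with 29.3 in noDOX and 34.2 in WT-SOX9. The W1 score was 1.96 times that of D0, while the caller's fold enrichment was 11.21 at W1 and 11.98 at D0, so the 2 readouts of the same peaks went in different directions. A region inside the gene, chr11:98418722-98420035, likewise scored 19.2 at D0 and 43.1 at W1 and then 16.5, 16.5 and 18.6, with culture scores of 22.5 to 56.2, and its enrichment was 11.84 at D0 and 13.9 at W1.

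Erbb3 encodes the family member with an impaired kinase (chr10:128567523-128589652, - strand). Its promoter region chr10:128588725-128590685 scored 9.66 at D0 and 19.5 at W1, then 13.1 at W2, 11.4 at W6 and 13.1 at W12, and was higher throughout culture, at 28.7 in noDOX, 35.4 in WT-SOX9, 34.7 in noHMG-SOX9, 31.1 in noTA-SOX9, 29.4 in AFOS, 44.2 in SOX9+AFOS and 20.99 in SOX9+ARID1a. The skin and culture values did not overlap, which also held for promoters outside the members, as given below for Hbegf. W1 stood 2.02-fold above D0, but 1.89-fold after scaling and with an enrichment of 5.79 against 5.33. The strongest region outside promoters, chr10:128583664-128584882, scored 25 at D0 and 30.1 at W1, ranged from 20.6 to 23.9 in the later skin lists and from 26.1 to 39.4 in culture.

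Erbb4, a neuregulin receptor (on chromosome 1, in the span given above), had a promoter region, chr1:69108372-69108775, that scored 3.03 at D0 and 4.34 at W1, then 6.68 at W2, 4.69 at W6 and 3.85 at W12 and had no peak in any culture list. These values lie close to the minimum of 3, and the W2 score was 2.204-fold that of D0. The strongest Erbb4 region lay -49.5 kb from the 5′ end (chr1:69157125-69157985), at 17.3 at D0 and 8.81 at W1, then 52.2 at W2, 26.2 at W6 and 17.8 at W12, and the only culture list that held it was WT-SOX9 at 11.2. Inside the gene, chr1:68049660-68050213 (the sequence with ACAATGG and AGATAA letters) was absent at D0 and W1 and scored 27.2 at W2, 8.26 at W6 and 3.20 at W12, and upstream of it chr1:69147320-69148140 was absent at both and scored 24.5, 15.0 and 6.21. All of the 3 strongest Erbb4 regions were highest at W2.

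Areg encodes amphiregulin (chr5:91139599-91148432, + strand), an autocrine growth factor of keratinocytes. Its promoter region chr5:91139096-91140002 scored 27.2 at D0 and 27.9 at W1, then 25.3 at W2, 16.4 at W6 and 14.8 at W12, and in culture 23.6 in noDOX, 18.4 in WT-SOX9, 20.2 in noHMG-SOX9, 16.5 in noTA-SOX9, 15.2 in AFOS, 24.5 in SOX9+AFOS and 14.03 in SOX9+ARID1a. The W6 and W12 values lay below the 3 earlier skin lists without a 2-fold change. An Areg intron region, chr5:91144909-91145511, was open in all skin lists, at 8.57, 7.22, 26.2, 21.8 and 14.3 in time order, and in no culture list. Ereg encodes epiregulin (chr5:91074622-91093646, + strand), and its promoter region chr5:91073843-91075262 scored 10.2 at D0 and 3.92 at W1, then 7.54 at W2, 13.8 at W6 and 11.9 at W12, with 10.9 (AFOS) to 20.5 (noTA-SOX9) in culture. W1 was the low list, at 0.384 of D0, and the enrichment went the same way, 5.54 against 10.1.

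Between Areg and Ereg, some regions were open mainly in uninduced and early skin and others in culture. The region starting at chr5:91104216 fell from 31.9 at D0 and 22.0 at W1 to 10.005, 6.61 and 10.9, was absent from the noDOX, WT-SOX9, noHMG-SOX9, noTA-SOX9 and AFOS lists, and scored 4.74 in SOX9+AFOS and 17.2 in SOX9+ARID1a. The region starting at chr5:91096917 scored 18.8 at D0, 14.6 at W1 and 3.55 at W2, with no peak at W6 or W12. In contrast chr5:91109831-91111494 scored 8.06 at D0, 12.3 at W1 and 7.29 to 9.58 later in skin, and 23.5 in noDOX, 30.2 in WT-SOX9, 32.8 in noHMG-SOX9, 17.6 in noTA-SOX9, 36.3 in AFOS, 64.0 in SOX9+AFOS and 43.1 in SOX9+ARID1a. A strong region in the Ereg window, chr5:91037657-91039107, scored 42.8 at D0, 42.5 at W1, 39.0 to 62.3 later in skin and 35.5 to 64.4 in culture, but lay nearest to the neighbouring ligand gene Epgn. A region at the Epgn promoter, chr5:91026147-91026686, scored 9.77 at D0 and 11.2 at W1 and was lost from W2 on.

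Hbegf encodes heparin-binding EGF-like growth factor (chr18:36504927-36515805, - strand), a ligand for EGFR and ERBB4 induced on wounding. Its promoter region chr18:36515244-36516254 scored 8.43 at D0 and 15.4 at W1, then 5.38 at W2, 8.90 at W6 and 6.66 at W12, against 51.5 in noDOX, 51.6 in WT-SOX9, 77.1 in noHMG-SOX9, 58.7 in noTA-SOX9, 31.5 in AFOS, 31.5 in SOX9+AFOS and 16.1 in SOX9+ARID1a. All culture values exceeded all skin values, and the highest was 14.3 times the lowest, the widest span among the promoters open in every list. The split between skin and culture is not particular to Hbegf and Erbb3. Among other pathway genes, Stat3 (33.7 to 53.5 in skin, 62.2 to 115 in culture) and Lrig1 (24.3 to 53.0, 54.9 to 155) had it and Egf did not. The share of all genes with it was not counted. SOX9+ARID1a was 0.312 of noDOX and 0.370 after scaling. A region downstream, chr18:36492304-36493672, scored 19.5, 13.1, 31.5, 29.1 and 19.5 in the skin lists and 11.998 in noDOX, 7.49 in WT-SOX9, 23.97 in noHMG-SOX9, 51.8 in noTA-SOX9, 62.5 in AFOS, 5.59 in SOX9+AFOS and 5.04 in SOX9+ARID1a. The 3 lists with full-length SOX9 were its lowest in culture. Upstream of the promoter, chr18:36517081-36517687 scored 16.1 at D0 and 8.24 at W1, then none at W2, 8.39 at W6 and 6.74 at W12, and in culture 17.4 in noDOX, none in WT-SOX9, 33.9 in noHMG-SOX9, 42.7 in noTA-SOX9, 19.02 in AFOS, 26.1 in SOX9+AFOS and 19.7 in SOX9+ARID1a.

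Tgfa encodes transforming growth factor alpha (chr6:86195223-86275719, + strand), an EGFR ligand long studied in the hair coat and epidermis. Its promoter region chr6:86194786-86196271 scored 22.5 at D0 and 21.2 at W1, then 13.1 at W2, 14.6 at W6 and 15.7 at W12, and 24.7 in noDOX, 28.3 in WT-SOX9, 32.9 in noHMG-SOX9, 27.1 in noTA-SOX9, 47.9 in AFOS, 58.3 in SOX9+AFOS and 25.4 in SOX9+ARID1a. The 2 lists with AFOS were the highest, SOX9+AFOS at 2.36-fold of noDOX. An intron region 24.2 kb into the gene (chr6:86218773-86220092) scored 68.3, 40.7, 53.4, 34.8 and 55.8 in skin, and 78.0 in noDOX, 20.7 in WT-SOX9, 98.3 in noHMG-SOX9, 87.3 in noTA-SOX9, 52.0 in AFOS, 38.9 in SOX9+AFOS and 73.5 in SOX9+ARID1a. WT-SOX9 was the lowest list of all 12 at this region, at 0.266 of noDOX and 0.309 after scaling, while the lists lacking a SOX9 domain stayed above noDOX.

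Of the Tgfa regions with higher scores in WT-SOX9 than in noDOX, some were open in other lists too. The intron region 57.2 kb into the gene (chr6:86251616-86253150) scored 4.997 at D0 and none at W1, then 36.4 at W2, 20.6 at W6 and 7.63 at W12, and in culture none in noDOX, 9.83 in WT-SOX9, 4.02 in noHMG-SOX9, none in noTA-SOX9, 5.41 in AFOS, 20.3 in SOX9+AFOS and none in SOX9+ARID1a. The region 98.5 kb from the 5′ end (chr6:86293311-86294136), past the end of Tgfa and nearest to the start of Fam136a, was absent at D0 and W1 and scored 8.64, 17.3 and 22.7 from W2 to W12, with 21.1 in WT-SOX9, 9.62 in SOX9+AFOS, 18.7 in SOX9+ARID1a and none in the other culture lists. A neighbouring region at 88.1 kb (starting at chr6:86282863) scored 8.78 at D0, 15.7 at W1 and 36.0 to 43.7 later, with 28.8 in noDOX, 40.2 in WT-SOX9, 9.49 in noHMG-SOX9, 7.08 in noTA-SOX9, 19.8 in AFOS, 81.0 in SOX9+AFOS and 87.7 in SOX9+ARID1a. Its lists with full-length SOX9 were the 3 highest of the culture lists.

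Btc encodes betacellulin (chr5:91357261-91402994, - strand), which binds EGFR and ERBB4. Its promoter region chr5:91402163-91403247 scored 11.6, 9.74, 14.7, 13.7 and 12.4 in skin, and 5.82 in noDOX, 5.26 in WT-SOX9, 6.83 in noHMG-SOX9, 7.65 in noTA-SOX9, 6.21 in AFOS, 13.3 in SOX9+AFOS and 4.51 in SOX9+ARID1a. SOX9+AFOS, at 2.29-fold of noDOX, was the only culture list within the skin range. The strongest Btc region, chr5:91332005-91332467, was found in SOX9+AFOS (40.1) and SOX9+ARID1a (7.62) and in no other list.

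Nrg1 encodes neuregulin 1, a ligand for ERBB3 and ERBB4. No promoter peak lay at the gene's 5′ end in any list, and the most open Nrg1 promoter region was chr8:32008436-32009900, 874.9 kb into the gene at starts of shorter transcripts. It scored 13.1 at D0 and 15.0 at W1, then 17.7 at W2, 17.7 at W6 and 13.2 at W12, and in culture 69.8 in noDOX, 52.6 in WT-SOX9, 58.7 in noHMG-SOX9, 47.3 in noTA-SOX9, 16.3 in AFOS, 31.2 in SOX9+AFOS and 29.4 in SOX9+ARID1a. AFOS was 0.233 of noDOX, SOX9+AFOS 0.446 and SOX9+ARID1a 0.421. Scaling took SOX9+AFOS to 0.517 and left AFOS (0.274) and SOX9+ARID1a (0.499) past 2-fold.

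Away from promoters, the strongest Nrg1 region, chr8:32264603-32266016, scored 47.0, 38.2, 71.8, 47.6 and 39.9 in skin, and 50.7 in noDOX, 31.5 in WT-SOX9, 34.1 in noHMG-SOX9, 20.3 in noTA-SOX9, 34.8 in AFOS, 103.5 in SOX9+AFOS and 94.1 in SOX9+ARID1a. The region chr8:32286419-32287690 scored 16.7 at D0, 4.03 at W1 and 15.5 to 20.2 later, and 63.7 in noDOX, 20.6 in WT-SOX9, 26.1 in noHMG-SOX9, 38.1 in noTA-SOX9, 35.7 in AFOS, 62.7 in SOX9+AFOS and 74.9 in SOX9+ARID1a, so its WT-SOX9 score was the lowest of the culture lists. The lost region whose sequence holds TGAGTCA (chr8:32281879-32282231) scored 4.23 at D0 and 12.2 at W1 and had no later skin peak.

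**Figure D2:**
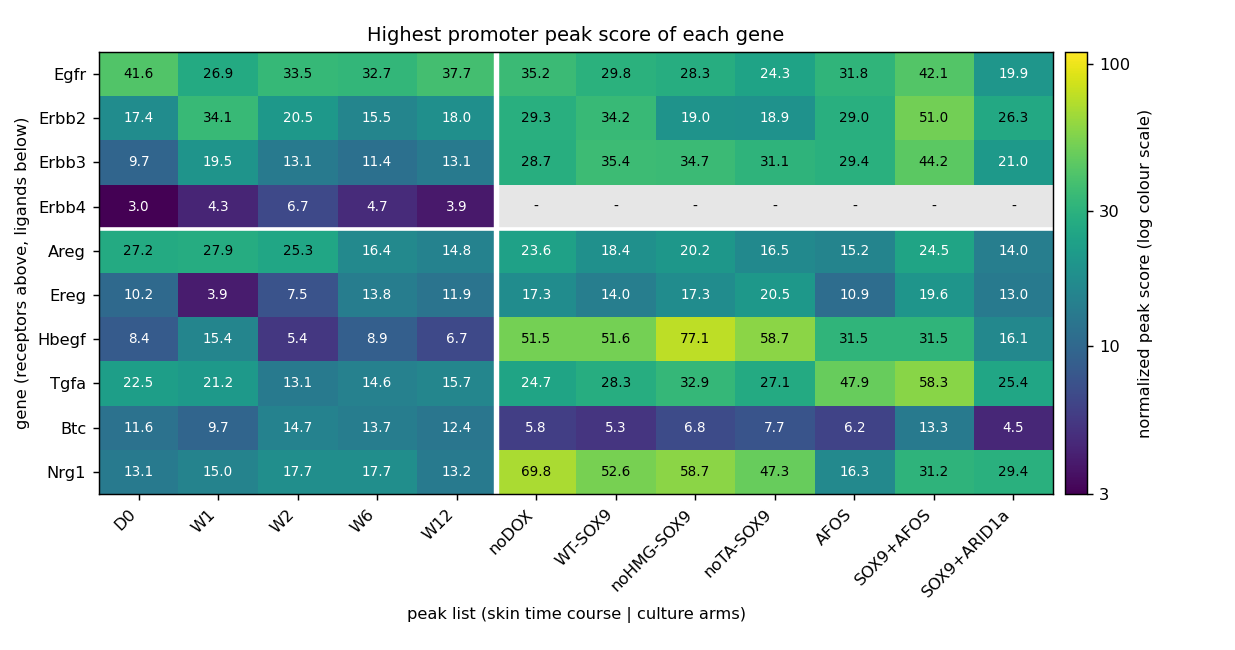
Highest promoter score of each of the 10 genes (rows) in each of the 12 lists (columns), with the score printed in the cell, the colour on a log scale and a dash for no peak. Hbegf and Erbb3 were higher in every culture list than in every skin list, as were some promoters not drawn (Stat3 and Lrig1), and Erbb4 had no promoter peak in culture.

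**Figure D3:**
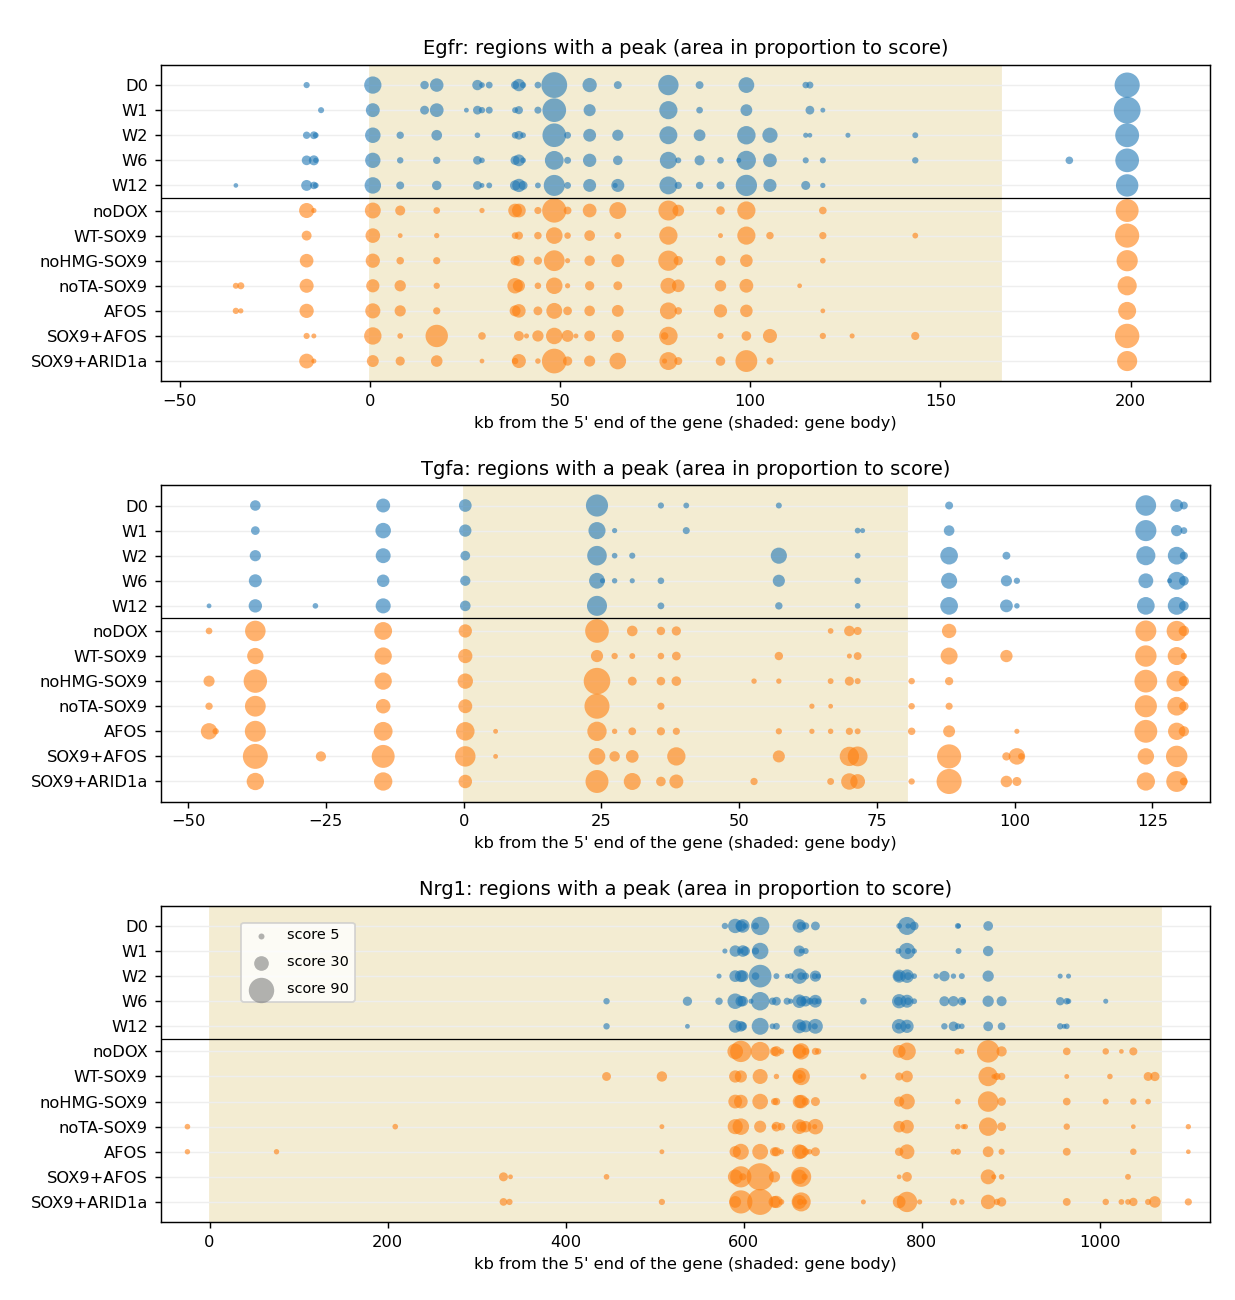
Regions of the Egfr, Tgfa and Nrg1 windows in the 12 lists (rows), placed by distance from the gene's 5′ end in kb, with dot area in proportion to the score, skin lists in blue, culture lists in orange and the gene body shaded. The Egfr region 105.2 kb from the 5′ end has dots in W2, W6, W12, WT-SOX9, SOX9+AFOS and SOX9+ARID1a only.

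Promoters of the members mostly stayed within 2-fold of their reference. At W1 Erbb3 was called higher and Ereg lower among 10 genes, where 11.3% of all genes with a promoter peak were higher and 2.08% lower. At W2 Erbb4 was higher and none lower, where 3.19% of all genes were higher and 2.59% lower. None of the 10 changed against D0 at W6 (5.09% of all genes higher, 3.77% lower) or W12 (2.41% and 3.5%). Against W1 the calls were others. At W2 none was higher (3.78% of all genes) and Hbegf lower (0.348, beside 13.3%), at W6 Ereg was higher (3.51-fold, beside 5.57%) and Erbb2 lower (0.454, beside 13.5%), and at W12 Ereg was higher (3.05-fold, beside 3.45%) and Hbegf lower (0.431, beside 16.9%). In culture 9 genes could be compared. None changed in WT-SOX9 (3.71% of all genes higher, 3.29% lower), noHMG-SOX9 (1.93% and 3.26%) or noTA-SOX9 (2.18% and 4.42%). In AFOS, Nrg1 was lower, where 2.84% of all genes were higher and 16% lower. In SOX9+AFOS, Tgfa and Btc were higher and Nrg1 lower, where 6.9% of all genes were higher and 8.59% lower. In SOX9+ARID1a, Hbegf and Nrg1 were lower, and 1.49% of all genes were higher and 35.7% lower in that list. Scaling on shared regions brought Tgfa in AFOS past 2-fold as well (2.29-fold, beside 5.13% of all genes higher after scaling). The same held for Erbb2 in SOX9+AFOS (2.02-fold, beside 11.4%). The calls of Erbb3 at W1 (1.89-fold, beside 8.799% higher) and Nrg1 in SOX9+AFOS (0.517, beside 5.497% lower) ended under scaling.

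Over time in skin, presence alone sorted the 186 regions with a skin peak into classes. Static regions, open in all 5 skin lists, numbered 76 (40.9%), where 40.4% of regions in all gene windows were static. Regions absent at D0 and W1 and open at W2, W6 and W12 numbered 18 (9.68%, Wilson interval 6.21 to 14.8%), where the share over all windows was 7.51%. Of these 18, Nrg1 held 6, Egfr 5 and Erbb4 3, and Erbb2, Areg, Tgfa and the shared Areg/Ereg window held 1 each. Regions open at D0 and closed at W2, W6 and W12 numbered 10 (5.38%, beside 5.35%), with 3 at Nrg1 and 2 at Areg, and their scores ran from 3.28 to 9.93 at D0, where the median of the whole list was 9.96. At W1 all 10 were open at 3.63 to 12.2, and 4 of them scored above that list's median of 10.3. Regions open at W6 and W12 only also numbered 10 (5.38%, beside 6.51%), with 5 at Nrg1 and 2 at Egfr. Each of the 4 shares over all windows lay within the interval of the members' share, which covers counting error only and treats regions as independent although neighbours are not. With lists shortened to equal length, the share gained by W2 and kept was 4.11% (beside 5.64%) and the share lost 11.6% (beside 9.37%).

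**Figure D4:**
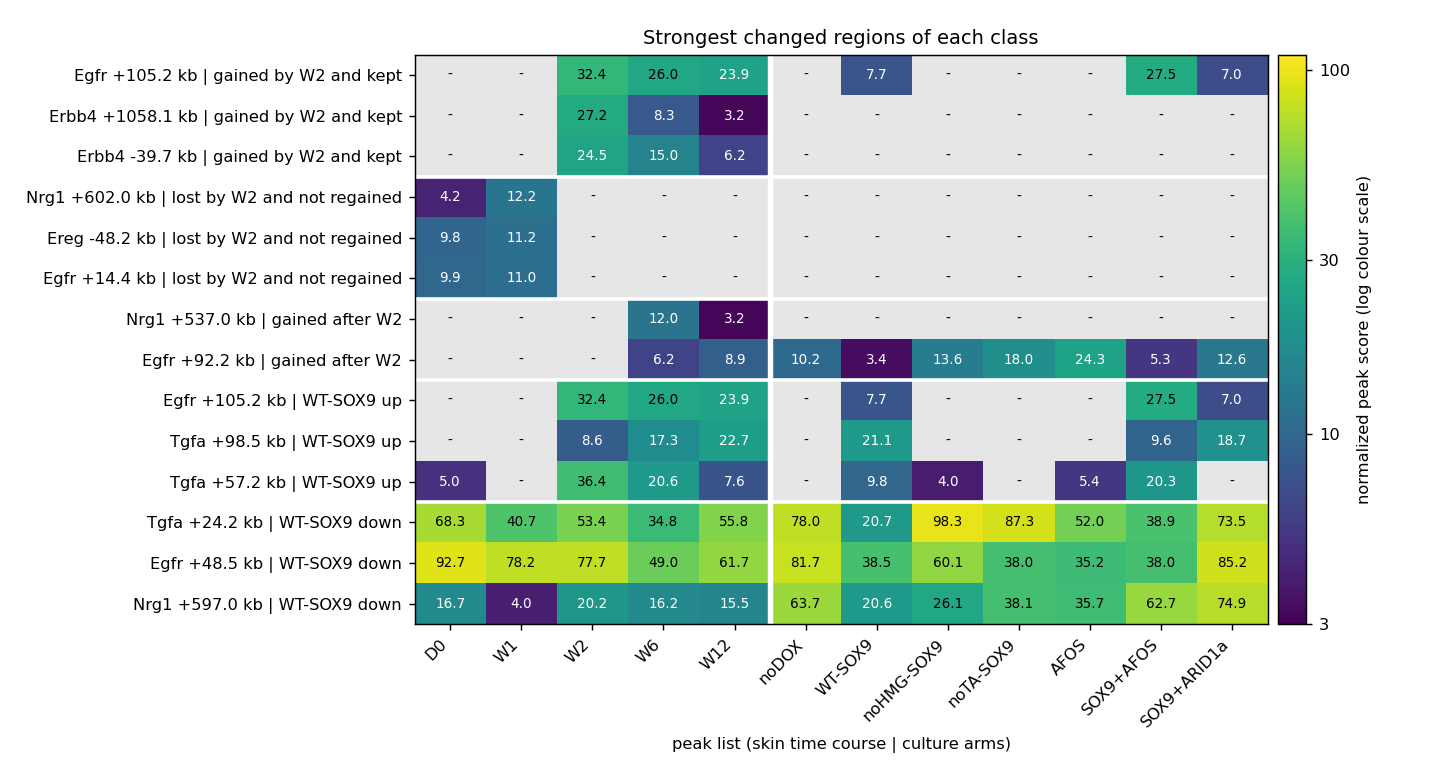
Scores in the 12 lists (columns, skin first, colour on a log scale) of the member regions with the highest scores in each class (rows, by kb from the gene's 5′ end, 3 a class and 2 for those gained after W2), a list without a peak being grey with a dash. The regions gained by W2 belong to Egfr and Erbb4, and the Egfr region stays at 23.9 or above to W12 while both Erbb4 regions fall to 6.21 or below.

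Scores against D0 gave a similar account. The 4 comparisons share the D0 list. At W1, 9 of 121 regions were higher (7.44%, beside 8.34% over all windows) and 8 lower (6.61%, beside 5.49%). At W2, 24 of 144 were higher (16.7%, beside 15.7%) and 14 lower (9.72%, beside 9.94%). These W2 shares sit near the background. At W6, 37 of 165 were higher (22.4%, beside 18.8%) and 18 lower (10.9%, beside 10.8%). Nrg1 gave 18 of those 37, out of 41 of its regions tested, while Egfr gave 6 of 31, Areg 4 of 19 and Tgfa 3 of 18. At W12, 22 of 150 were higher (14.7%, beside 15.2%) and 17 lower (11.3%, beside 8.92%), with 9 of the higher regions at Egfr and 7 at Nrg1. Against W1 in place of D0, 21.3% of 150 regions were higher at W2 (beside 17.1% over all windows) and 16.7% lower (beside 14.9%). At W6, 29.8% of 171 were higher (beside 20%) and 16.4% lower (beside 14.8%), and at W12, 20.3% of 158 were higher (beside 17.6%) and 14.6% lower (beside 14.9%). Against D0, Hbegf had no region higher at W6 or W12 and Tgfa none lower. The share of calls that were higher went from 52.9% to 38.9% at W1 (60.3% to 48.0% over all windows) when scores were scaled on shared regions, and from 63.2% to 43.6% at W2 (61.2% to 42.2% over all windows) when every skin list was held to the same −log10 q minimum.

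In culture the 6 arms share the noDOX list, and WT-SOX9 had the largest share of member regions lower. With WT-SOX9, 11 of 124 regions were higher (8.87%, beside 12.4% over all windows) and 32 lower (25.8%, Wilson interval 18.9 to 34.2%, beside 18.4%). The median change over the 78 regions present in both lists was -0.32 on the log2 scale, against -0.09 over all windows. The lower regions lay at Nrg1 (9 of 30 tested), Egfr (8 of 21), Tgfa (5 of 18) and Hbegf (4 of 12), and after scaling 13 were higher (10.5%, beside 16.1% over all windows) and 27 lower (21.8%, beside 13.8%). With noHMG-SOX9, which cannot bind DNA through its HMG box, 4 of 114 were higher (3.51%, beside 6.87%) and 8 lower (7.02%, beside 8.55%). With noTA-SOX9, 12 of 126 were higher (9.52%, beside 12.4%) and 22 lower (17.5%, Wilson interval 11.82 to 25.02%, beside 11.4%). Scaling shifted noTA-SOX9 by 0.33 on the log2 scale and turned its balance from 35.3% to 60.6% of calls higher (52.1% to 74.9% over all windows), and it turned that of noHMG-SOX9 from 33.3% to 50% (44.5% to 53.6%).

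AFOS blocks AP1, the FOS and JUN dimer that EGF receptor signalling itself induces. With AFOS, 10 of 127 regions were higher (7.87%, beside 13.8%) and 16 lower (12.6%, beside 12.2%), and the balance went from 38.5% to 64.3% of calls higher under scaling (53.2% to 71.3% over all windows). With SOX9+AFOS, 37 of 137 were higher (27.0%, Wilson interval 20.3 to 34.99%, beside 16.7%) and 26 lower (18.98%, beside 21.2%). The higher regions were at Tgfa (10 of 22), Egfr (7 of 25) and Erbb2 (5 of 11) among others, and after scaling 41 were higher (29.9%, beside 21.3% over all windows) and 19 lower (13.9%, beside 17.2%). With SOX9+ARID1a, 26 of 137 were higher (18.98%, beside 14.7%) and 11 lower (8.03%, Wilson interval 4.54 to 13.8%, beside 15.3%), led by Tgfa (8 of 19 higher) and Areg (7 of 15), and after scaling 37 were higher (27.0%, beside 20.2%) and 8 lower (5.84%, beside 10.1%). All these shares compare 1 list with 1 list.

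**Figure D5:**
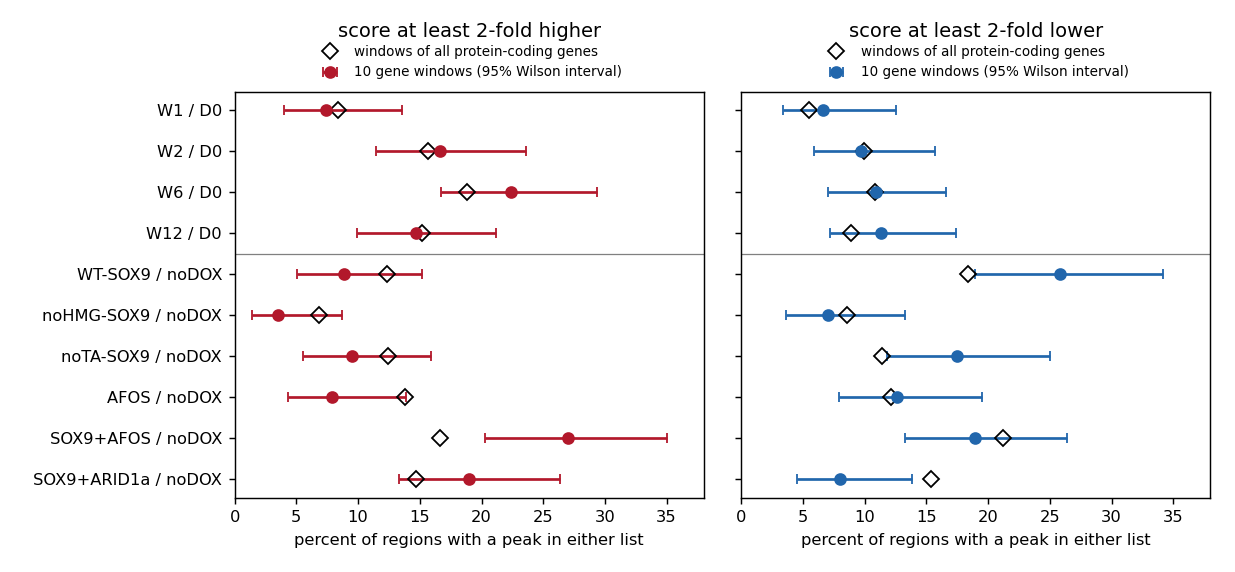
Percent of regions at least 2-fold higher (left panel) or lower (right panel) than D0 for the skin lists and than noDOX for the culture lists, for member regions (filled points, bars for the 95% Wilson interval) and for all gene windows (open diamonds). In WT-SOX9 the members' 25.8% lower lies above the 18.4% of all windows, and in SOX9+AFOS the members' 27.0% higher lies above 16.7%.

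Patterns of presence over the arms were chosen after their values were seen. The 3 regions found in all lists with full-length SOX9 and in no other culture list made up 1.68% of the 179 member regions with a culture peak, where 2.39% of regions in all windows had the pattern. These are the Egfr, Areg/Ereg (chr5:91114567-91115049) and Tgfa regions shown above. The reverse pattern, absent from WT-SOX9 but open in noDOX, noHMG-SOX9, noTA-SOX9 and AFOS, was met by 13 regions (7.26%), where all windows gave 6.33%. Of these, 5 lay at Nrg1, 2 each at Erbb2, Hbegf and Tgfa, and 1 each at Egfr and the Areg/Ereg window. Just 7 of 186 regions (3.76%) were open in all skin lists and in no culture list, where all windows gave 5.91%. They were the Erbb4 promoter, 2 regions each in the Erbb3 and Egfr windows and 1 each at Areg and Nrg1.

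Skin and culture could be set side by side for regions that changed at least 2-fold both at W2 against D0 and in WT-SOX9 against noDOX. There were 9 of 94 regions tested in both (9.57%, the same as the 9.57% over all windows), of which 7 changed in the same direction (77.8%, beside 75.1%). With W1 in place of D0, 14 of 92 changed in both (15.2%, beside 10.8%) and 7 of those in the same direction (50%, beside 63.1%). The values that follow are against D0. The folds were 3.02 and 3.73 for the upstream Erbb4 region, 10.8 and 2.58 for the Egfr region at 105.2 kb, 7.28 and 3.28 for the Tgfa region at 57.2 kb, 2.88 and 7.02 for the Tgfa region at 98.5 kb, and 2.08 and 4.41 for an Areg/Ereg region at chr5:91115507-91116031, where an absent peak at D0 or noDOX makes the value a lower bound. The Areg/Ereg region had no peak at D0 or W1 and scored 6.23 at W2. Lower in both were an Egfr intron region (chr11:16791042-16791707, 0.498 and 0.351) and the region upstream of Hbegf, at most 0.186 and at most 0.172, since it had no peak at W2 or in WT-SOX9. The Egfr region scored 21.4 at D0, 9.17 at W1 and 10.7 at W2, so its W2 score was below that of D0 but above that of W1. Opposite directions were seen at Egfr chr11:16759864-16760584 and Nrg1 chr8:32108814-32109520, which were higher in skin and lower in culture.

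Over all 242 regions, the shares with SOX, AP1 and GATA letters in the central 200 bases lay near those over all windows, and the share with RUNX letters lay lower. SOX letters occurred in 12 of 242 regions (4.96%, beside 5.60% over all windows), AP1 letters in 41 (16.9%, beside 18.3%), GATA letters in 28 (11.6%, beside 10.2%) and RUNX letters in 29 (11.98%, beside 16.2%). Of the 32 regions lower in WT-SOX9, 11 held AP1 letters (34.4%, beside 31.3% of such regions over all windows). Of the 11 regions higher in WT-SOX9, 1 held SOX letters (9.09%, beside 16.2%). Among the 18 regions gained by W2, 1 held SOX letters (5.56%, beside 11.03%), that in the Erbb4 intron, and 4 held RUNX letters (22.2%, beside 18.8%). Of the 10 lost regions, 5 held GATA letters (50%, beside 22.3%) and none RUNX letters (beside 11.75%). Of the 10 gained after W2, 4 held AP1 letters (40%, beside 33.5%), 3 held GATA letters (30%, beside 7.31%) and none RUNX letters (beside 22.6%). These classes are small, and their shares were not tested. The absence of a match says only that these letters are not in these 200 bases.

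Of 22 other genes of the pathway (other ligands, shedding proteases, feedback inhibitors and adaptors), few promoters changed against D0 or noDOX except in SOX9+ARID1a, and the shares of all genes given above for each list are set beside the counts. At W1, 3 of 20 were higher (11.3% of all genes) and none lower, namely the protease regulator Rhbdf2 (2.29-fold), the adaptor Grb2 (2.33-fold) and the phosphatase Ptpn11 (2.06-fold, 1.93-fold after scaling). None changed against D0 at W2 or W12, but against W1 5 of 20 were lower at W2 (beside 13.3%), namely Rhbdf2 (at most 0.324), Errfi1 (0.440), Lrig1 (0.458), Cbl (0.481) and Ptpn11 (0.492). Against W1, Rhbdf2 (0.408) and Spry1 (0.431) were lower at W12, of 20 (beside 16.9%), and at W6, of 21, Nrg2 (at least 2.02-fold) and Spry4 (2.03-fold) were higher (beside 5.57%) and Shc1 (0.473) lower (beside 13.5%). Against D0 at W6, of 21, Nrg2 was higher (at least 2.02-fold, beside 5.09% of all genes) and Epgn (0.417) and Rhbdf1 (0.480, 0.518 after scaling) lower (beside 3.77%). In WT-SOX9, of 21, Rhbdf2 was higher (2.65-fold, beside 3.71%) and Epgn lower (0.257, beside 3.29%).

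Epgn encodes epigen, an EGFR ligand beside Ereg, and its promoter scored 41.5 at D0 and 32.5 at W1, then 27.0 at W2, 17.3 at W6 and 23.7 at W12. In culture Epgn scored 24.03 in noDOX, 6.19 in WT-SOX9, 11.3 in noHMG-SOX9, 10.6 in noTA-SOX9, 8.89 in AFOS, 7.38 in SOX9+AFOS and 15.2 in SOX9+ARID1a. Every DOX list was below noDOX at Epgn, and 5 of the 6 past 2-fold, of which scaling ended the call in noTA-SOX9 (0.443 to 0.555) and left noHMG-SOX9 at 0.499. In noHMG-SOX9 Epgn was the only gene of the list that was lower (beside 3.26% of all genes). In noTA-SOX9 the inhibitor Spry1 was lower as well (0.399, 0.5005 after scaling, beside 4.42%), so no call of that list held under scaling. In AFOS, 4 of 21 were lower (beside 16%), with Egf (0.339), Lrig3 (0.352) and Sos1 (0.442, 0.521 after scaling) besides Epgn. In SOX9+AFOS, Nrg2 (0.426) and Epgn were lower (beside 8.59%). In SOX9+ARID1a 10 of 21 were lower, where 35.7% of all genes were, and 6 after scaling, where 24.8% of all genes were.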

How the data were processed

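ATAC-seq reads were aligned by the authors to GRCm38/mm10 with Bowtie2 2.2.9. SAMtools 1.9, Picard 2.3.0 and deepTools 2.5.4 are also named in the submitters' processing notes. Both replicates of a group were merged, and peaks were called with MACS2 2.1.1 keeping duplicates. The deposited score of each peak is a normalised score with a minimum of 3. For the skin lists the authors also deposited the caller's fold enrichment, a ratio over background, and −log10 q values. Read depth is not given in the lists, so no interval on a score was possible.

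Peaks of all 12 lists that overlapped by at least 1 bp were merged into regions (Python 3.11.15, numpy 2.4.6, pandas 2.3.3, scipy 1.17.1, pysam 0.24.0) and placed on GENCODE vM21. A promoter is 1 kb on either side of a protein-coding transcript start. Calls used a 2-fold change of the highest score, 95% Wilson intervals cover counting error only, and no test was run because each group is 1 list. The calling code was tested on simulated data. Scores were also scaled on regions open in all lists, and the other alternatives are given in the closing section.

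The members and lists of genes were chosen with earlier results of these data known. Regions were named by rule: for each gene the promoter and the distal region with the highest score, and for each class the 3 with the highest score, of which 1 is not reported here. Other regions, the Erbb4, Areg/Ereg and downstream Tgfa sequences, and the presence patterns over arms were chosen after their values were seen.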

Additional observations from a re-analysis of the deposited data

Results flagged for a closer look

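Opposite directions in skin and culture marked 2 regions, and the difference was not tested, since each group is 1 list. At Egfr chr11:16759864-16760584 the W2 score was at least 2.51-fold that of D0, with none at D0 or W1 and 7.54, 5.76 and 8.78 at W2, W6 and W12. In culture this region scored 13.9 in noDOX and 3.21 in WT-SOX9, a ratio of 0.230, while noHMG-SOX9 (7.93), noTA-SOX9 (17.9), AFOS (17.5) and SOX9+ARID1a (11.6) were higher than SOX9+AFOS (4.48). At Nrg1 chr8:32108814-32109520 the W2 score was 5.36-fold that of D0, with 4.47 at D0, none at W1 and 23.98, 28.3 and 29.4 later. In culture this Nrg1 region scored 23.0 in noDOX, 9.10 in WT-SOX9 (0.396 of noDOX), 14.5 in noHMG-SOX9, 18.7 in noTA-SOX9, 9.91 in AFOS, 3.14 in SOX9+AFOS and 22.6 in SOX9+ARID1a.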

How the results depend on the processing

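No paired analysis was possible because the replicates of each group were merged before peaks were called, and for the same reason no replicate could be left out. Of 178 alternative values of the members' shares, 164 stayed within the 95% interval of the reported share and 14 did not. Some of these alternatives let fewer peaks or regions enter by their construction. With a score of at least 5, the share higher was 9.57% at W2 (12.05% over all windows) and 14.9% at W6 (13.5%). The percentages in brackets below are likewise over all windows under the same setting. With lists shortened to 49458 peaks, the share gained by W2 and kept was 4.11% (5.64%), the share lost was 11.6% (9.37%), and the share higher in noTA-SOX9 was 5.13% (11.5%). A common −log10 q minimum of 14.5 put the share lower at W2 at 18.8% (19.2%). A window of 10 kb put the share higher in noHMG-SOX9 at 1.32%, from 1 region (6.75%). Scaled scores put noTA-SOX9 lower at 10.3% (6.46%), AFOS higher at 14.2% (19.3%) and lower at 7.87% (7.76%), and SOX9+ARID1a higher at 27.0% (20.2%). After the data were seen, regions nearest to a member's own start were added (static 33.1%, where 40.4% of regions in all windows were static), and so was the list labelled W1 as the reference in place of D0 (W2 lower 16.7%, 25 of 150 regions, beside 14.9% over all windows; W6 higher 29.8%, 51 of 171, beside 20%). For no setting was the cause of a moved share tested. Depth is unknown, so scores near the minimum of 3, such as the Erbb4 promoter, cannot be separated from an absent peak.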
